A study of Homo sapiens with 2 samples.

Results

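The genes described here are 38 regulators of cell death: the BCL2 family, the caspases, the inhibitor of apoptosis proteins (IAPs), the adaptors and kinases of death receptor complexes, and 2 gasdermins. They were compared between HARA-B4, 1 subline that metastasises strongly to bone, and its parent HARA, an established cell line from a human squamous carcinoma of the lung. Each line gave total RNA for 1 Affymetrix array, with no replicates, and both grew as cultures in the same medium with serum and antibiotics, with no treatment named in the labels. The genes were chosen by symbol, and every probe set whose only gene symbol in the platform annotation was one of them was taken. In all, 36 of the 38 genes had such a probe set, 116 probe sets together, out of 19735 genes and 41043 probe sets named on the array. BIRC3 and RIPK1 had none, so their expression is not analysed here.

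Apoptosis runs along a mitochondrial and a death receptor route. On the mitochondrial route, BH3-only proteins are released or induced by stress and bind the anti-apoptotic BCL2 proteins, which frees the pore-forming effectors to open the outer mitochondrial membrane. Cytochrome c then assembles APAF1 and caspase-9 into the apoptosome, while the IAPs restrain caspases and are themselves bound by proteins that leave the mitochondrion. Death receptors instead recruit adaptors and caspase-8, and related machinery drives necroptosis through RIPK3 and pyroptosis through inflammatory caspases and gasdermins. Transcript levels say nothing of cleavage, phosphorylation or location, by which most of these proteins are switched on or off.

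Values are linear probe set signals, as deposited. A signal counted as above background when it passed 27.1, the 95th percentile, over both arrays, of 165 probe sets for smell, taste and vomeronasal receptors. Each gene was read from its brightest probe set by mean log2 signal, and differences are log2 signals of HARA-B4 minus those of HARA. A gene was called at a difference of 2-fold or more, and a gene above background on 1 array only has a lower bound for its fold, measured against the background level. With 1 array per line no test is possible and no p-value is given, so nothing below is shown to exceed the spread between cultures. The only repeat measure is that of several probe sets for 1 gene on the same arrays, and over 4830 genes with at least 2 such probe sets the SD within a gene was 0.30 (log2 difference). The arrays had nearly equal overall levels, with trimmed mean signals of 116.0 in HARA-B4 and 115.6 in HARA. In these bulk samples, fewer cells expressing a gene and less RNA per cell cannot be told apart.

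Squamous markers were bright on both arrays. All 6 squamous epithelial markers with a probe set were above background, at signals of 543 to 7345 in HARA-B4 and 191 to 4723 in HARA. Their levels were not all alike in the 2 lines, with 4 higher and 2 lower in HARA-B4. PKP1 was called higher, at 672 in HARA-B4 and 191 in HARA (log2 difference 1.82). At 1.5-fold, 3 of the 6 were higher and 0 lower. The 5 fibroblast markers and the 3 bone cell markers with a probe set were all at background, with summed signals of 52.4 and 39.5 in HARA-B4 against 49.6 and 31.8 in HARA. Of 5 blood and marrow markers, HBB and ITGAM passed background in HARA-B4, at 33.9 and 28.6, and HBB alone in HARA, at 35.7, while PTPRC, CD3E and CD14 were at background on both. PECAM1 was the 1 endothelial marker of 4 above background, at 50.4 in HARA-B4 and 50.6 in HARA.

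BOK was the only gene of the set called at 2-fold, and no gene above background on both arrays reached it on its brightest probe set. Of the 36 measured genes, 29 were above background on both arrays, BOK and RIPK3 were above it in HARA-B4 only, and BCL2, BCL2A1, BMF, HRK and CASP10 were at background on both. Of the 31 genes above background on at least 1 array, 1 was called higher in HARA-B4 and 0 lower (3.23%), where 7.82% of all 11489 such genes were called (3.62% higher and 4.2% lower). The called gene was BOK. With so few genes, that count is not read as a departure from the background. Among the 29 genes above background on both arrays the median difference was 0.11, beside 0.019 over all 10202 such genes, with an SD of 0.34 beside 0.55. Positive differences were found in 17 and negative ones in 12 of the 29. Of the 29, 0 reached 2-fold, beside 6.69% of all genes above background on both arrays. The set was brighter than those genes, with a median signal of 306 against 231. Over the 4228 genes at least as bright as the median of the set, the SD was smaller, at 0.48. Of these, 4.75% reached 2-fold, beside 0 of 15 genes of the set. At 1.5-fold, BOK was higher and CASP2 lower, 2 of 31 genes (6.45%), where 21.3% of all genes passed (10.2% higher and 11.0% lower). The range ran from -0.86 for CASP2 to 0.57 for CASP4.

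**Figure D1:**
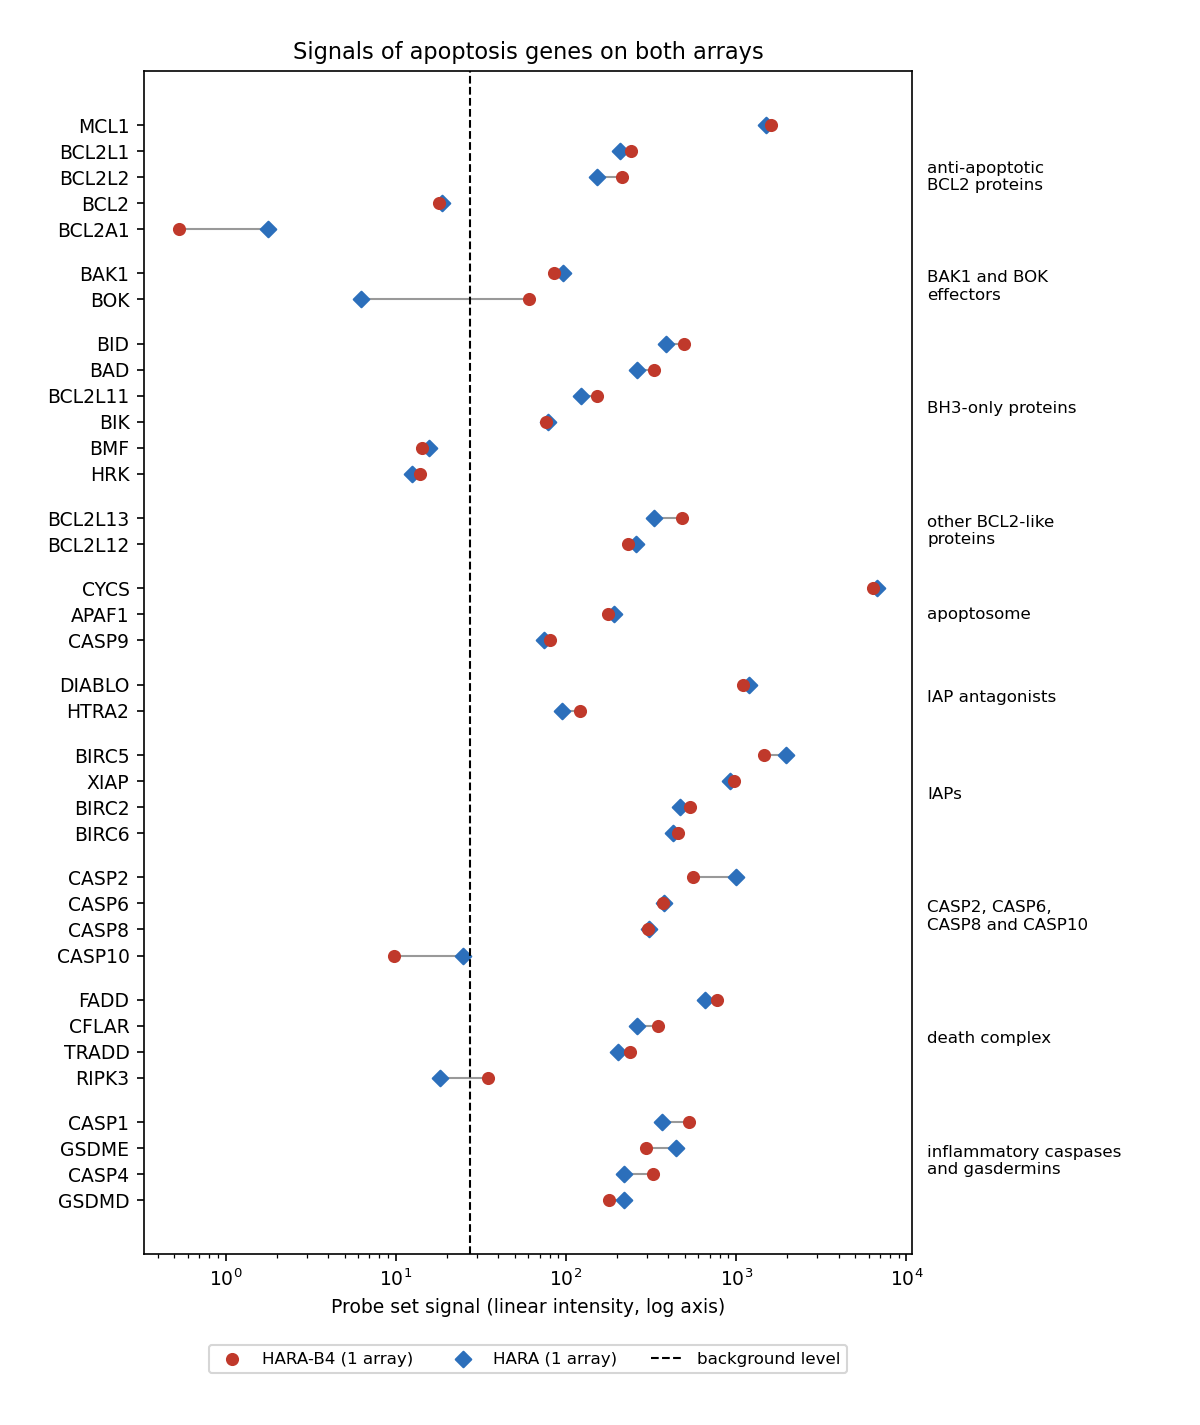
Signal of each measured gene on the array of HARA-B4 (circles) and of HARA (diamonds), on a log axis, grouped by role, with the background level of 27.1 as a dashed line. Most pairs of points nearly coincide, BOK lies on opposite sides of the line (60.9 in HARA-B4 and 6.27 in HARA), and CASP2 shows the widest gap among genes above background on both arrays.

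**Figure D2:**
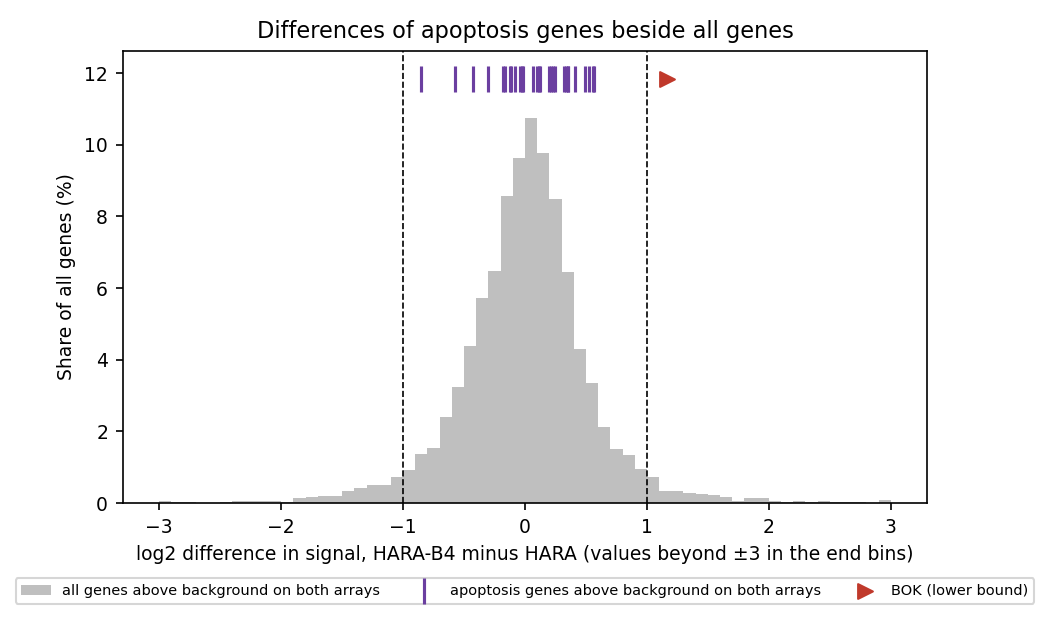
Log2 difference, HARA-B4 minus HARA, of the 29 apoptosis genes above background on both arrays (ticks) and the lower bound of BOK (triangle), over the share of all 10202 genes above background on both arrays in bins of the difference. Dashed lines mark 2-fold, and all 29 ticks lie between them.

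BOK was the only called gene. It encodes a BCL2 family effector that can permeabilise the outer mitochondrial membrane without BAX or BAK1. Its brightest probe set had a signal of 60.9 in HARA-B4, against 6.27 in HARA, so it was at least 2.24-fold higher in HARA-B4. HARA-B4 was above background and HARA was not. The other probe set of BOK was at background on both arrays, at 1.94 in HARA-B4 and 2.99 in HARA. That probe set did not detect BOK in HARA-B4 and so gave no support to the call. The call rests on 1 dim probe set. It was lost when the background was raised by 1 on the log2 scale, when all probe sets were averaged, when the _x_at and _s_at probe sets, whose probes can match more than 1 transcript or gene, were left out, and on log2(signal + 16). BAK1, the other effector in the set, which sits in the outer mitochondrial membrane, had 84.8 in HARA-B4 and 96.1 in HARA (log2 difference -0.18).

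The promoters of BOK and of the genes with the most negative and most positive differences above background on both arrays are shown because they carry the ends of the range. CASP2 and GSDME stood lowest and CASP4 highest. Each is the 250 bases before the outermost start listed for that gene, from RefSeq (GRCh38.p14), written along the strand of the gene. Capitals mark the GC box GGGCGG and the CCAAT box (CCAAT) on either strand, where adjoining matches run together. The BOK stretch is chr2:241558495-241558744 (plus strand), that of CASP2 chr7:143288101-143288350 (plus), that of GSDME chr7:24757465-24757714 (minus) and that of CASP4 chr11:104968575-104968824 (minus).
BOK: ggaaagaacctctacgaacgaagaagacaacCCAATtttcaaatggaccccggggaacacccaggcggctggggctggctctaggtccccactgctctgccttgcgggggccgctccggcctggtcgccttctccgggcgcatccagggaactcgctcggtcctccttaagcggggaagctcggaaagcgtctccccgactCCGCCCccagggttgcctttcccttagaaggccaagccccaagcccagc
CASP2: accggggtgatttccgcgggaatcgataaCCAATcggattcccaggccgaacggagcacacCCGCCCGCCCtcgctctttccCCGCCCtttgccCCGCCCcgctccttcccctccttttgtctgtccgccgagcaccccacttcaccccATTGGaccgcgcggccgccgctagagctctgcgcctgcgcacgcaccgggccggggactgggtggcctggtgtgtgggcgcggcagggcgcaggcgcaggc
GSDME: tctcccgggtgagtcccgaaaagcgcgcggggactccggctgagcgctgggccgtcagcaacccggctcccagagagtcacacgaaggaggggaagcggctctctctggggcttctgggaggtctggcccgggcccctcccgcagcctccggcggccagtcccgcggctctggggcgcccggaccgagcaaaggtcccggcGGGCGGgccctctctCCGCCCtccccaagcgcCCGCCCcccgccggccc
CASP4: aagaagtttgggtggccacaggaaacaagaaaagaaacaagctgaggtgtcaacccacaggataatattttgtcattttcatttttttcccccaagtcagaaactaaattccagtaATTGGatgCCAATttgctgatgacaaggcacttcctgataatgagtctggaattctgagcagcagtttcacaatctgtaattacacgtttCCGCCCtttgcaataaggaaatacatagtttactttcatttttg

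These promoters differed in composition. The stretches of GSDME and CASP2 held 28 and 29 CpG dinucleotides at 76.4% and 71.2% G and C, that of BOK 17 at 64.4%, and that of CASP4 2 at 38%. Promoters were found for 29 of the 38 genes. These are not the 29 genes above background on both arrays, since BCL2A1 and RIPK1 are among them. Their median was 18 CpG and 64.4%, against 10 and 57.6% over all 27305 promoters. A GC box lay in 19 of the 29 (65.5%) and in 42.2% of all promoters, and a CCAAT box in 12 of the 29 (41.4%) and 33.0% of all. GSDME had 3 GC boxes and no CCAAT box, CASP2 had 4 and 2, and BOK had 1 of each. The stretch of CASP4 had 1 GC box and 2 CCAAT boxes. The letters TATAAA were in 3 of the 29 (10.3%; 11.2% of all), and the core of the interferon response element (GAAA, any pair of letters, GAAA) in 1 of the 29, BCL2A1 (3.45%; 3.07% of all), both searched on either strand. A match is a description of the letters in this window only.

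The anti-apoptotic BCL2 proteins hold the effectors in check. MCL1, a short-lived member that many carcinomas depend on, had a signal of 1602 in HARA-B4 and 1493 in HARA (log2 difference 0.10). Its 6 probe sets, all above background, ranged from -0.17 to 0.56, with a mean of 0.14 ± 0.26 (SD over probe sets). BCL2L2, which encodes BCL-w, had 214 in HARA-B4 and 152 in HARA (0.49), and its second probe set had 47.0 in HARA-B4 and 29.2 in HARA (0.69). Both probe sets of BCL2L2 were thus higher in HARA-B4. BCL2L1, which encodes BCL-XL, had 240.3 in HARA-B4 and 207 in HARA on its brightest probe set (0.21). Its other 2 probe sets above background went the other way, with 67.3 in HARA-B4 against 94.7 in HARA (-0.49) and 31.5 against 59.4 (-0.92). The direction of BCL2L1 therefore depends on the probe set, with a mean of -0.40 ± 0.57 (SD over 3 probe sets). BCL2 itself, the founding member, was at background on both arrays on all 4 of its probe sets, with 17.9 in HARA-B4 and 18.6 in HARA on the brightest. BCL2A1, an NF-kappaB target best known in blood cells, was at background at 0.531 in HARA-B4 and 1.76 in HARA, with 1 probe set.

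The BH3-only proteins start the mitochondrial route. BID, which links caspase-8 to mitochondria after cleavage, had 496 in HARA-B4 and 388 in HARA (log2 difference 0.35). All 3 of its probe sets were higher in HARA-B4, with a mean of 0.42 ± 0.13 (SD over probe sets). BAD, which is held inactive by survival kinases, had 328 in HARA-B4 and 259.6 in HARA (0.34), and its other probe set above background had 224 in HARA-B4 and 183 in HARA (0.29). BCL2L11, which encodes BIM and is repressed by ERK signalling, had 153 in HARA-B4 and 123 in HARA (0.32). Its probe sets were split, 2 higher and 3 lower, and averaged 0.0080 ± 0.28 (SD over 5 probe sets). BIK, a protein of the endoplasmic reticulum, had 76.1 in HARA-B4 and 78.4 in HARA (-0.043). BMF, a sensor of lost anchorage, was at background at 14.2 in HARA-B4 and 15.6 in HARA. HRK, best known in neurons, was also at background, at 13.8 in HARA-B4 and 12.5 in HARA on the brightest of 5 probe sets. The median over the 4 BH3-only genes above background was 0.33.

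The remaining BCL2-like genes parted. BCL2L13, a mitochondrial outer membrane protein that acts as a mitophagy receptor, had 481 in HARA-B4 and 327 in HARA (log2 difference 0.56). Its 4 probe sets above background were all higher in HARA-B4, at 0.43 to 0.77, with a mean of 0.62 ± 0.16 (SD over probe sets). BCL2L12 had 229.9 in HARA-B4 and 258 in HARA (-0.16), on 1 probe set.

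The apoptosome genes hardly differed. CYCS, which encodes cytochrome c of the respiratory chain, had 6344 in HARA-B4 and 6732 in HARA (log2 difference -0.086), the brightest signals in the set. CYCS has processed pseudogenes that near-identical probes may also read. Its other 2 probe sets were above background in HARA only, with 19.7 and 18.2 in HARA-B4 against 41.7 and 40.1 in HARA. APAF1, the scaffold of the apoptosome, had 177 in HARA-B4 and 192 in HARA (-0.12), and its second probe set had 46.2 in HARA-B4 and 60.5 in HARA (-0.39). CASP9, the initiator caspase it activates, had 80.5 in HARA-B4 and 73.9 in HARA (0.12), while its other probe set had 68.5 in HARA-B4 and 84.1 in HARA (-0.30). The direction for CASP9 thus differed between its probe sets.

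None of the IAPs or their mitochondrial antagonists was called, and their differences ran from -0.43 for BIRC5 to 0.36 for HTRA2. XIAP, which binds and blocks caspases directly, had 971 in HARA-B4 and 926 in HARA (log2 difference 0.069), and its 7 probe sets averaged 0.19 ± 0.26 (SD), with 5 higher and 2 lower. BIRC2, which encodes the ubiquitin ligase cIAP1, had 538 in HARA-B4 and 471 in HARA (0.19). BIRC6, a giant ubiquitin-conjugating IAP, had 457 in HARA-B4 and 423 in HARA (0.11), and its second probe set had 297 in HARA-B4 and 334 in HARA (-0.17). BIRC5, or survivin, a mitotic protein of the chromosomal passenger complex made mainly in dividing cells, had 1457 in HARA-B4 and 1959.8 in HARA (-0.43). All 4 probe sets of BIRC5 were lower in HARA-B4, with a mean of -0.32 ± 0.12 (SD). DIABLO, which leaves mitochondria to displace IAPs from caspases, had 1094 in HARA-B4 and 1184 in HARA (-0.11). HTRA2, a mitochondrial serine protease with the same role, had 121 in HARA-B4 and 94.4 in HARA (0.36), and its second probe set also was higher (0.49).

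CASP2 had the most negative difference of the set. It encodes caspase-2, an initiator activated by the PIDDosome after DNA damage or extra centrosomes. Its brightest probe set had 555 in HARA-B4 and 1004 in HARA (log2 difference -0.86), short of 2-fold, and 5.06% of all genes above background on both arrays were lower. The other 5 probe sets above background on both arrays were also lower in HARA-B4, at -0.94 to -0.18, and the 6 averaged -0.60 ± 0.29 (SD over probe sets). A seventh probe set was above background in HARA only, with 16.3 in HARA-B4 and 77.6 in HARA, a difference of -1.52 or lower. CASP2 is therefore lower in HARA-B4 on all 7 probe sets, by amounts that differ widely, from -0.18 to -1.52 or lower. Only the seventh probe set passed 2-fold.

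The other caspases of this class differed little on their brightest probe sets. CASP6, an executioner caspase, had 373 in HARA-B4 and 379 in HARA (log2 difference -0.023), with the other probe set at 0.14. CASP8, the initiator at death receptors, had 304 in HARA-B4 and 308 in HARA (-0.019). A second probe set of CASP8 was lower in HARA-B4, at 50.9 against 88.8 in HARA (-0.80), so its probe sets disagree in size. CASP10, a close relative of CASP8, was at background on its brightest probe set, with 9.76 in HARA-B4 and 24.97 in HARA. Of its other 3 probe sets, 1 was above background in HARA only, with 3.86 in HARA-B4 and 33.3 in HARA.

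None of the 4 measured death receptor complex genes was called, and the probe sets of CFLAR and TRADD did not share a direction. FADD, the adaptor that brings caspase-8 to the receptors, had 776 in HARA-B4 and 654 in HARA (log2 difference 0.25), on 1 probe set. TRADD, the adaptor of TNF receptor 1, had 237 in HARA-B4 and 202 in HARA (0.23), but its second probe set had 145 in HARA-B4 and 166 in HARA (-0.20). CFLAR, which encodes the caspase-8 regulator c-FLIP in long and short forms, had 349 in HARA-B4 and 262 in HARA (0.41). Of its 14 probe sets, 5 were above background on both arrays, 2 higher and 3 lower in HARA-B4, from -0.40 to 0.41, with a mean of -0.028 ± 0.39 (SD). All 5 end in _x_at, and the CFLAR form that each one reads was not worked out. Further CFLAR probe sets were above background on 1 array only. Those in HARA only had differences of -0.45, -0.55 and -0.22 or lower, and that in HARA-B4 only had 0.17 or higher. RIPK3, the kinase that drives necroptosis, had 35.0 in HARA-B4 and 18.2 in HARA, above background in HARA-B4 only, so it was at least 1.29-fold higher and not called.

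Inflammatory caspases stood higher in HARA-B4 and the gasdermins lower, all by under 2-fold. CASP1, which matures interleukin-1 beta and cleaves gasdermin D, had 526 in HARA-B4 and 365 in HARA (log2 difference 0.53). Its 5 probe sets were all higher, at 0.23 to 0.71, with a mean of 0.56 ± 0.19 (SD). Of these, 4 end in _x_at or _s_at, and the remaining one gave the smallest difference, at 83.0 in HARA-B4 and 70.6 in HARA (0.23). CARD16, a neighbouring gene that resembles the CARD region of CASP1, had 82.0 in HARA-B4 and 43.2 in HARA, so reads of CASP1 probe sets that match both genes are uncertain. CASP4, the sensor of cytosolic lipopolysaccharide, had 324 in HARA-B4 and 219 in HARA (0.57). Its other probe set was at background on both arrays, at 8.40 in HARA-B4 and 24.2 in HARA, and the mean of both probe sets was -0.48. GSDME, a gasdermin that forms membrane pores once cut, had 296 in HARA-B4 and 441 in HARA (-0.57), and GSDMD, the pore former cut by inflammatory caspases, had 178 in HARA-B4 and 219 in HARA (-0.30), each on 1 probe set.

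Probe sets of the same gene were the only repeat measure. They share the same RNA and the same 2 arrays, so their spread does not include error between arrays. Of the 76 probe sets of these genes above background on both arrays, 0 differed by 2-fold. The share over all such probe sets was not counted, so this 0 is not read as a result. Among 19 genes with at least 2 such probe sets, 6 were higher in HARA-B4 on every one (BCL2L2, BCL2L13, BAD, BID, CASP1 and HTRA2), 4 were lower on every one (APAF1, BIRC5, CASP2 and CASP8), and 9 were split. The share with 1 sign was 52.6%, beside 62.8% over all 4830 such genes. The pooled within-gene SD was 0.28 for these genes.

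**Figure D3:**
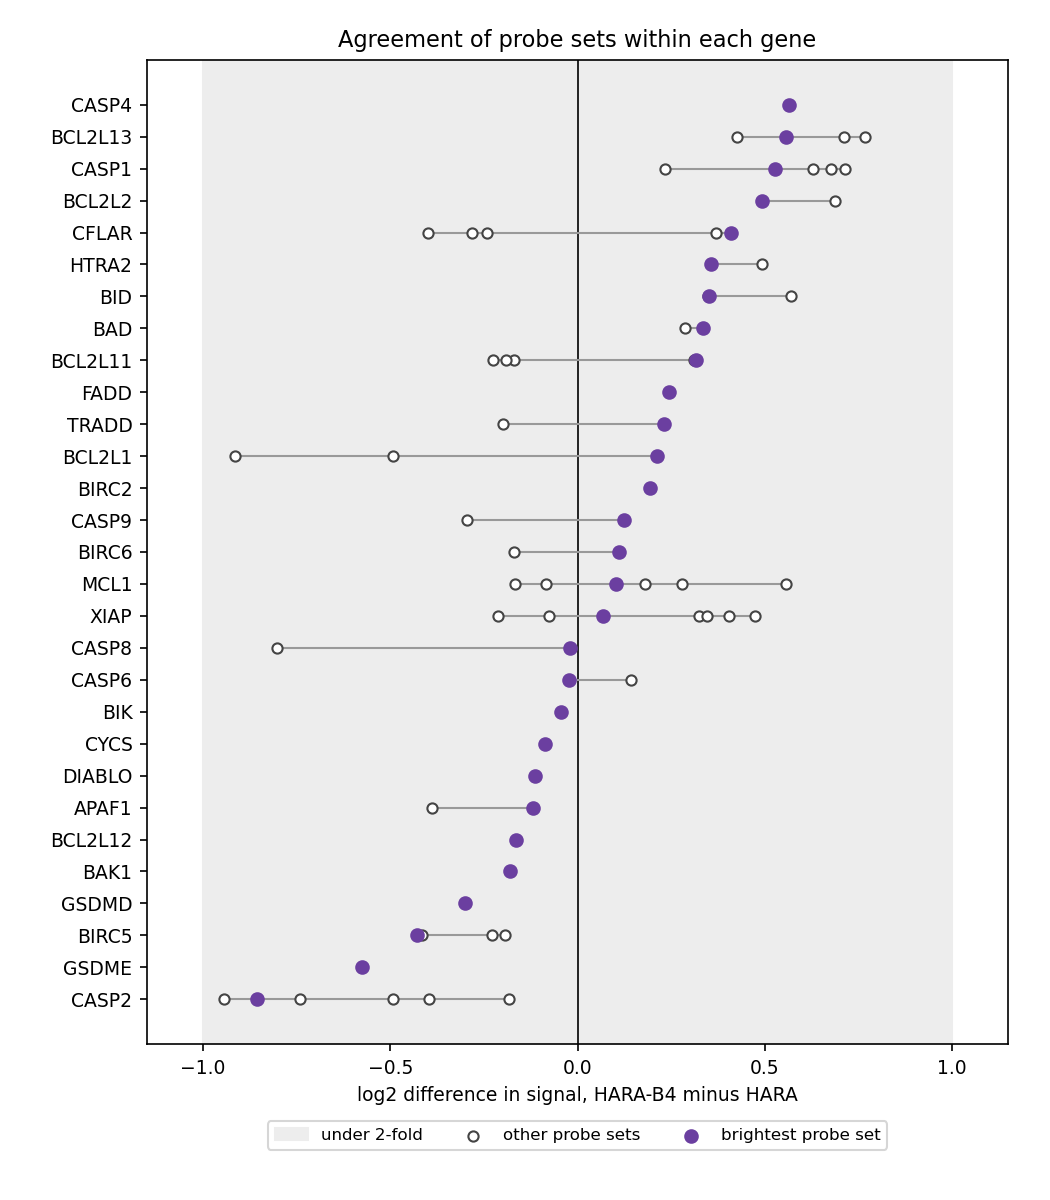
Log2 difference, HARA-B4 minus HARA, of every probe set above background on both arrays for the 29 genes, with the brightest probe set filled and the others open, and a line over their range. All points lie within the grey band under 2-fold, the 6 points of CASP2 all lie left of 0, the 4 of BCL2L13 all right of 0, and those of CFLAR and BCL2L1 lie on both sides.

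Several of these genes are neighbours on their chromosomes. BCL2L13 and BID lie next to each other on chromosome 22, with 0 protein-coding genes between them in RefSeq order (GRCh38.p14), and every probe set of both that was above background was higher in HARA-B4. CASP4 and CASP1 lie on chromosome 11 with 1 protein-coding gene between them, and both stood higher. CFLAR, CASP10 and CASP8 follow one another on chromosome 2, and their brightest probe sets did not share a direction (0.41 for CFLAR, background for CASP10 and -0.019 for CASP8). GSDME and CYCS lie on chromosome 7 with 2 protein-coding genes between them, at -0.57 and -0.086.

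The level around each gene was described by the median difference of up to 12 genes on either side that were above background on both arrays. CASP2, on chromosome 7, had the most negative surroundings of the set, with a median of -0.54 over 24 neighbours, of which 4 were positive, and 2.58% of all such windows were lower. Its nearest measured neighbours were GSTK1, at 263 in HARA-B4 and 570.4 in HARA (log2 difference -1.12), and FAM131B-AS2, at 41.3 in HARA-B4 and 52.9 in HARA (-0.36). CASP2 thus differed from the median of its neighbours by -0.31. GSDME stood apart from its surroundings the most, at -0.57 against a median of 0.16, a gap of -0.74. BCL2L13 and BID had neighbours at 0.21, over 16 and 17 genes, since fewer than 12 measured genes lay on 1 side of each. ATP6V1E1, beside BCL2L13 and BID, had 1930.5 in HARA-B4 and 1094 in HARA (0.82). CASP1 and CASP4 exceeded their neighbours, at medians of 0.092 and 0.12, by 0.43 and 0.44. For BOK the 17 neighbours had a median of 0.095 and 0 of them reached 2-fold.

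Across the 29 genes, the difference of a gene and the median of its neighbours had a Pearson r of 0.51 and a Spearman rho of 0.31. Without CASP2 these were 0.28 and 0.24, so the Pearson value rests largely on CASP2. Over all 10178 genes with a window they were 0.40 and 0.37. These are correlations across genes on the same 2 arrays. The genes are not independent, since adjoining windows share genes.

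**Figure D4:**
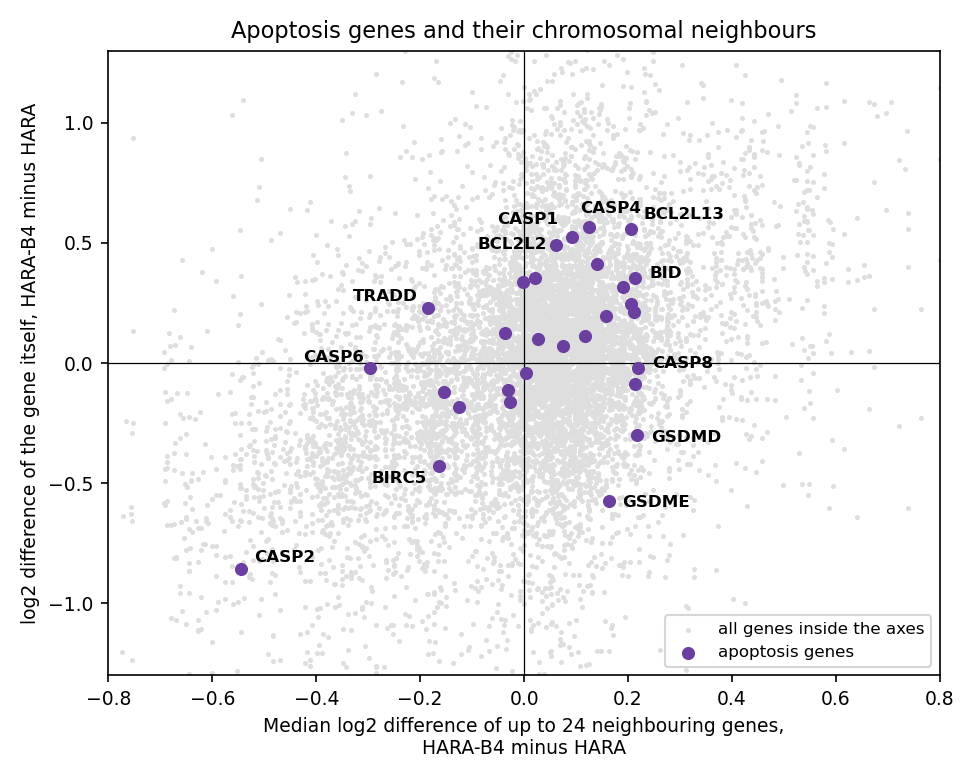
Log2 difference of each gene, HARA-B4 minus HARA, against the median log2 difference of up to 24 neighbouring genes, for the 29 apoptosis genes (large points) and all genes (small points, those inside the axes). CASP2 lies far to the lower left (-0.86 against -0.54), while GSDME lies below 0 with neighbours above 0.

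Other genes of these pathways gave few calls as well. Of 46 genes above background on at least 1 array in 5 lists of general knowledge, 0 were called higher and 2 lower (4.35%, beside 7.82% of all genes), and at 1.5-fold 14 passed (30.4%, beside 21.3% of all genes). Their median difference was -0.029, over 41 genes above background on both arrays. Both called genes came from the list of further IAPs, ubiquitin regulators and necroptosis genes, of which 9 were above background on at least 1 array. MLKL, the pore former that RIPK3 phosphorylates, had 71.9 in HARA-B4 and 155 in HARA (log2 difference -1.11), on 1 probe set. RBCK1, a subunit of the linear ubiquitin ligase that acts at TNF receptor 1, had 448 in HARA-B4 and 1035 in HARA (-1.21), and its 3 probe sets ran from -1.21 to 0.091, so its size and sign depend on the probe set. RBCK1 was no longer called with the mean of all probe sets or when every probe set had to pass, and MLKL was no longer called on log2(signal + 16).

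The remaining lists had no call. In the list of death receptors and ligands, 7 genes were above background, all of them receptors. The ligand genes FASLG, TNFSF10 and TNF were at background on both arrays. TNFRSF10B, a TRAIL receptor, had 504 in HARA-B4 and 572 in HARA (log2 difference -0.18). Its 3 probe sets above background on both arrays ran from -0.67 to 0.049. TNFRSF21, or death receptor 6, had 483 in HARA-B4 and 286 in HARA (0.75). Of 13 further mitochondrial genes, MTCH2, which binds truncated BID, had 4234 in HARA-B4 and 3383 in HARA (0.32). Its 2 probe sets ran from -0.047 to 0.32. VDAC2, which holds BAK1 in the membrane, had 4002 in HARA-B4 and 3514 in HARA (0.19). Of 11 further caspases, adaptors and substrates, PEA15, a death effector domain protein that binds FADD and caspase-8, had 1172 in HARA-B4 and 628 in HARA (0.90). ROCK1, the kinase that caspases cut to drive blebbing, had 564 in HARA-B4 and 1114 in HARA (-0.98) in the same list. Its 2 probe sets above background on both arrays ran from -0.98 to -0.29. ROCK1 was called with the median difference subtracted or a lowess trend removed. Of 6 pyroptosis genes, PYCARD, the inflammasome adaptor ASC, had 299 in HARA-B4 and 249 in HARA (0.26), and IL18, a cytokine cut by caspase-1, had 247 in HARA-B4 and 243 in HARA (0.025).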

How the data were processed

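Total RNA of HARA-B4 and of HARA was measured on 1 Affymetrix array each. The authors deposited linear probe set intensity values, 1 per probe set for 54675 probe sets, made with Affymetrix Expression Console per the submitters' processing notes, with its version, summary algorithm and scaling not given in the sources used here. Precision is limited by the number of arrays. Values were used as deposited, with log2 taken in Python 3.11.15 (pandas 2.3.3, NumPy 2.4.6, SciPy 1.17.1).

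Probe sets with 1 symbol in the platform annotation (41097, with 1801 having several and 11777 none) were renamed by Entrez ID through the RefSeq table of GRCh38.p14, which matched 41043. Brightest probe set, background, bound and 2-fold rule are as given with the results. The calling was tested on simulated data, with changes added only to genes well above background in HARA. Genes at background in HARA, such as BOK, were given no change there, so that kind of call was not tested. Alternatives were 3 scalings, 2 background levels, 3 choices of probe sets, log2(signal + 16), and folds of 1.5 and 3. Every gene of the set is accounted for, and each further list gives up to 4 called genes, or the 2 brightest where none was called. The members and lists were chosen with earlier results of these data known.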

Additional observations from a re-analysis of the deposited data

How the results depend on the processing

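No paired analysis was possible because each line has 1 array. The count of called genes in the set was 1 (BOK). It stayed 1 with the median difference subtracted, quantile normalization, a lowess trend removed, and the background lowered by 1 on the log2 scale. It also stayed 1 when every probe set had to pass. Of these, only quantile normalization could have lost the call of BOK. The median and lowess shifts left genes above background on 1 array only unchanged, and a lower background raises the bound. The demand on probe sets skipped those at background on both arrays, so BOK kept its 1 probe set. The count was 0 with the background raised by 1, with the mean of all probe sets, without _x_at and _s_at probe sets, on log2(signal + 16) and at 3-fold. At 1.5-fold it was 2, when CASP2 joined. BOK lies close to background, and its bound moved with the background level by construction, at 0.17 raised and 2.17 lowered. Over all genes the count of 899 became 2444 at 1.5-fold and 296 at 3-fold. The further lists, with 2 calls (MLKL and RBCK1), had 5 with the background lowered, 1 (MLKL) when every probe set had to pass, 1 (RBCK1) on log2(signal + 16), 14 at 1.5-fold and 0 at 3-fold. They had 3 with the median difference subtracted and with the lowess trend removed, when ROCK1 joined, and with the mean of all probe sets the 2 calls were MLKL and PIDD1. The median difference of the set ran from 0.038 to 0.20 except with the mean of all probe sets, where it was -0.029, and the cause was not tested. Of 263 recomputed gene values, 251 moved by less than the within-gene SD. Many of these were bound to stay. The 2 background levels left the 29 genes above background on both arrays unchanged, and the median subtraction shifted each by 0.019. The 251 is therefore not a measure of stability. The sign changed in 10 of 31 genes under 1 alternative each: BCL2L1, CASP4, CASP6, CASP9 and BIRC6 with the mean of all probe sets, MCL1 and TRADD when every probe set had to pass, BIK and CASP8 with quantile normalization, and BCL2L11 without _x_at and _s_at probe sets.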

Other observations

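Of the further pathway genes, 14 passed 1.5-fold, 5 higher and 9 lower in HARA-B4. MLKL, RBCK1, PEA15, ROCK1 and TNFRSF21 are given with the results, and the other 9 are all given here, after their values were seen. Of the higher genes, TNFRSF10D, a decoy TRAIL receptor, had 56.0 in HARA-B4 and 31.4 in HARA (log2 difference 0.83). NINJ1, which ruptures the plasma membrane in lytic death, had 87.5 in HARA-B4 and 51.4 in HARA (0.77). NLRP1, an inflammasome sensor, had 50.7 in HARA-B4 and 33.5 in HARA (0.60). TNFRSF10D and NLRP1 were thus near the background of 27.1 in HARA. FAS, the CD95 death receptor, had 273 in HARA-B4 and 431 in HARA (-0.66), and its 4 probe sets above background on both arrays ran from -0.89 to -0.65. BAX, the effector that acts beside BAK1, had 111 in HARA-B4 and 174 in HARA (-0.64), with the other probe set at -0.40. PIDD1, the scaffold that activates caspase-2, had 53.3 in HARA-B4 and 101 in HARA (-0.93), and passed 2-fold with the mean of all probe sets. CYLD, a deubiquitinase of the TNF receptor complex, was also lower, at 59.6 in HARA-B4 and 94.5 in HARA (-0.66). TNFRSF25, or death receptor 3, had 29.8 in HARA-B4, near background, and 58.3 in HARA on its brightest probe set (-0.97). Its 3 probe sets ran up to 0.31. IL1B, which encodes interleukin-1 beta, had 20.4 in HARA-B4 and 47.0 in HARA, above background in HARA only.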
